A study of Mus musculus with 16 samples.

Results

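The genes described here are 44 that encode lysosomal enzymes, their cofactors, membrane proteins of the lysosome and the MiT/TFE transcription factors that act on such genes. They were picked out by name from 45724 genes in the expression table of cultured mouse neurons, and all 44 were found. The rule that names them uses no measured value, but it was set with earlier results of these data known, so counts over the members are descriptions. They comprised 10 hydrolases and cofactors that macrophages are known to hold in large amounts, 23 hydrolases that most cells express, 8 membrane proteins and saposins, and the 3 factors Tfeb, Tfe3 and Mitf. This division into macrophage-rich and widely expressed members came from general knowledge and was not measured in these cultures. The cultures were primary neurons of newborn (P0) C57BL/6 mouse brain to which a peptide of the subcommissural organ (SCO), which secretes into the cerebrospinal fluid, had been added. The peptides were NP24, thymosin beta 10 (Tβ10) and thymosin beta 4 (Tβ4), of which the thymosins are small actin-binding peptides, and the control cultures received DPBS, a buffered salt solution. Each of the 4 groups had 4 libraries of total RNA, and the dose and duration of treatment are not given in the sources used here. The question addressed was whether lysosomal genes differed with each peptide, and whether the widely expressed members differed as the macrophage-rich ones did.

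Lysosomes are acidic organelles that break down proteins, glycans and lipids delivered by endocytosis and autophagy. Their enzymes are made as precursors, most carry a mannose 6-phosphate tag that directs them to the lysosome, and loss of single enzymes causes storage diseases that often damage neurons. TFEB, TFE3 and MITF bind an E-box sequence in the promoters of many of these genes and raise their transcription, and microglia, the macrophages of the brain, carry many lysosomes.

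Libraries held 11642242 to 38254320 reads in genes, and values are normalized counts, that is, reads divided by 1 size factor per library. The 11 neuron markers examined were all present, with mean log2 levels per library of 11.44 to 11.56 with NP24, 11.25 to 11.55 with Tβ10, 11.14 to 11.40 with Tβ4 and 11.31 to 11.44 in control cultures. None of them was called with any peptide by limma, and DESeq2 called 2 higher with NP24. All markers of the oligodendrocyte lineage were detected in every library, so the cultures were not neurons alone. Reads of mitochondrial rRNA made up 5.98% to 8.12% of a library with NP24, 4.76% to 9.53% with Tβ10, 8.25% to 24.3% with Tβ4 and 9.32% to 14.2% in control cultures. The labels do not say whether the 4 libraries of a group came from separate cultures, so p-values measure the spread between these libraries, which may be technical.

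Promoter sequences are shown for 6 members, since the MiT/TFE factors act through the E-box CACGTG and the members that differed included genes with and without it. RefSeq windows on GRCm38.p6, each 250 bases before to 50 bases after a transcript start, were available for 39 of the 44 members. CACGTG, searched on both strands, lay in the windows of 14 of these members (35.9%), against 8.09% of 27025 genes with a window. The longer form TCACGTG, which contains the first motif, was in 12 members (30.8%) against 4.29% of genes. The M-box TCATGTG was in 6 members (15.4%) against 4.31% of genes. A match is a description of the sequence and not evidence of binding. The stretches below are the 110 bases before the RefSeq start on the gene's strand, with CACGTG and, where present, its flanking T or A in capitals. Ctsd is at chr7:142387828-142387937 (minus strand), Ctsa at chr2:164833663-164833772 (plus, the second of its windows), Lamp1 at chr8:13159051-13159160 (plus), Mcoln1 at chr8:3500409-3500518 (plus), Cd63 at chr10:128909235-128909344 (plus) and Lamp2 at chrX:38456461-38456570 (minus). Cd63 and Lamp2 are shown because they were lower with a peptide but had no CACGTG in the window, while Lamp1 held 4 copies in its stretch and Mcoln1 held 2. The only Cd63 window lies inside its gene model, which begins at 128900989, so the sequence before that position was not searched. The Ctsa stretch shown also lies inside its gene model, which begins at 164832873. The stretch of the first Ctsa window, just before that position, held 0 copies of CACGTG.
Ctsd: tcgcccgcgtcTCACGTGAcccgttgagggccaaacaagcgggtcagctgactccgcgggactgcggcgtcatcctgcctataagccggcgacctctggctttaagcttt
Ctsa: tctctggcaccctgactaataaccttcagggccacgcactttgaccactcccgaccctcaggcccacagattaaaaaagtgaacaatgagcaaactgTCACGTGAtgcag
Lamp1: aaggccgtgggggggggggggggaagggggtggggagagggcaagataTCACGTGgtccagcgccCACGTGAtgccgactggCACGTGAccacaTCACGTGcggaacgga
Mcoln1: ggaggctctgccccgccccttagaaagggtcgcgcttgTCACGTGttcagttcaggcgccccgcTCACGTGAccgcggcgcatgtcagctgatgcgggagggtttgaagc
Cd63: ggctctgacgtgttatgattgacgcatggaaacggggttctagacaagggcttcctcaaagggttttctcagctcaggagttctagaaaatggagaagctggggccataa
Lamp2: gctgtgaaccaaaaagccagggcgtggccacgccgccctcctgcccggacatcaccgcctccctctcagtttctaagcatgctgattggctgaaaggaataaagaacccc

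Most lysosomal genes had lower mean levels with NP24 and with Tβ10 than in control cultures, and few of these differences passed the test. With NP24, the protease gene Ctsd, the peptidase gene Tpp1, the membrane protein genes Lamp2 and Cd63 and the saposin precursor gene Psap fell, and no member rose. With Tβ10, Ctsd, Ctsa and Cd63 fell and none rose. With Tβ4 no member passed the test. In bulk RNA, fewer cells of a type and less RNA per cell cannot be told apart. All 44 members passed the filter on low values in each comparison. Each comparison used limma's test on log2(normalized count + 1), with p-values adjusted over all genes tested (Benjamini-Hochberg) and a threshold of 0.05, and fold changes on this scale understate the change of low genes.

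The 5 members called with NP24 were all lower, where 2.63% of 21774 genes tested were called and 1.47% were called lower. At an unadjusted p under 0.05, 16 members were lower and 1, Ids, was higher, against 8.78% of all genes lower. The log2 difference was below 0 in 35 of 44 members with a median of -0.33, while it was below 0 in 50.5% of all genes. The 4 NP24 libraries lay wholly below the 4 control libraries for 8 members, Ctsd, Ctsa, Ctsf, Tpp1, Lamp2, Cd63, Mcoln1 and Psap, where this held for 4.77% of all genes. The authors' deposited table for NP24 gave 3 of the 44 members an adjusted p under 0.05, Ctsd, Tpp1 and Lamp2, and 409 genes in all. With DESeq2 10 members were called, 9 lower and 1, Ids, higher. Over all genes DESeq2 also called more than limma, 612 lower and 566 higher, where limma called 319 lower and 253 higher. The count of members called was 1 with all 16 libraries in the fit. It was 8 without NP24 library 2, 3 without NP24 library 1, 2 without control library 2, and 1 without NP24 library 3, control library 1 or control library 4.

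With Tβ10, 3 members were called, all lower, where 0.633% of 21960 genes were called and 0.533% were called lower. At an unadjusted p under 0.05, 12 members were lower and 0 were higher, against 6.38% of all genes lower. The log2 difference was below 0 in 38 of 44 members with a median of -0.17, while it was below 0 in 50.7% of all genes. The Tβ10 libraries lay wholly below the control libraries for 6 members, Ctsd, Ctsa, Gaa, Tpp1, Lamp2 and Cd63, where this held for 3.95% of all genes. The authors' deposited table for Tβ10 named Ctsd, Cd63 and Lamp2 among the 44 at an adjusted p under 0.05, and 263 genes in all. The NP24 and Tβ10 comparisons share the same 4 control libraries, so their likeness is not independent. Over all genes DESeq2 called 304 lower and 119 higher, where limma called 117 lower and 22 higher. The count of members called was 5 with DESeq2, 1 with library-size scaling and 0 with all 16 libraries in the fit. It was 6 without Tβ10 library 2, 0 without control library 1, and 1 without Tβ10 library 3, Tβ10 library 4, control library 2, control library 3 or control library 4.

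**Figure D1:**
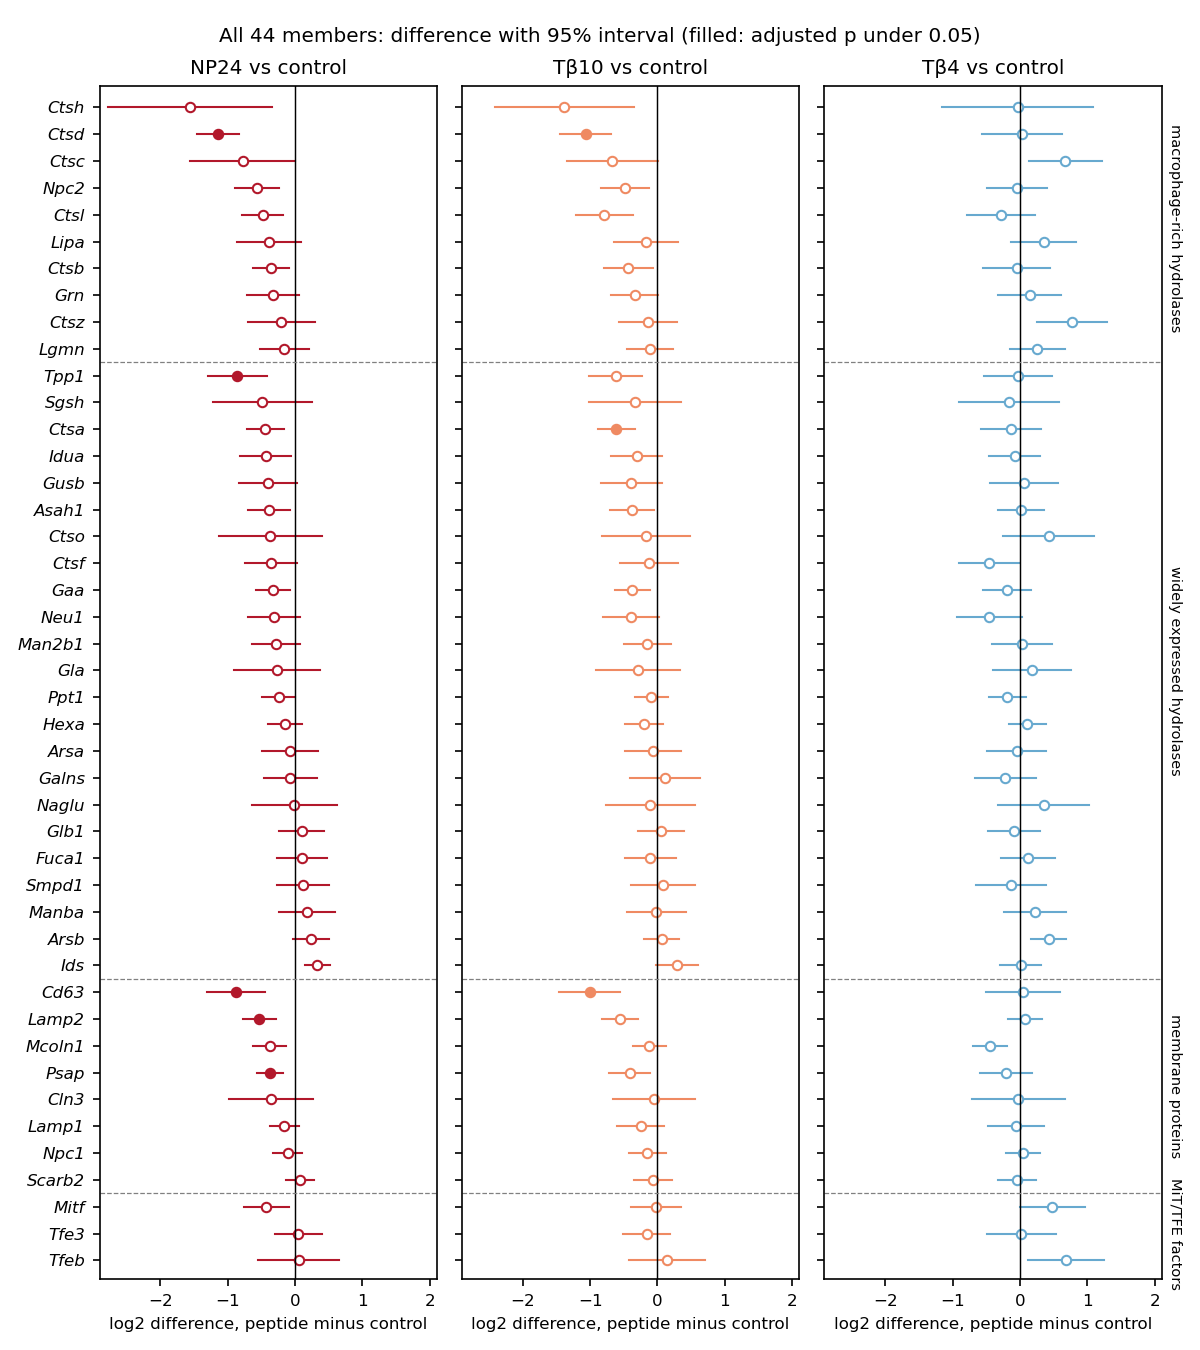
Log2 difference of each of the 44 members for NP24, Tβ10 and Tβ4, each against control, with its 95% interval from limma, in blocks for macrophage-rich hydrolases, widely expressed hydrolases, membrane proteins and MiT/TFE factors; filled points have an adjusted p under 0.05. In the NP24 panel 35 of 44 points lie below 0 and 5 are filled, in the Tβ10 panel 38 lie below 0 and 3 are filled, and in the Tβ4 panel 21 lie below 0 and none is filled.

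The plot of all members shows all points of the macrophage-rich block left of 0 with NP24 and with Tβ10, while the intervals of Ctsz, Lgmn, Lipa and Grn cross 0 with both. Among these 10 genes, which are mostly cysteine and aspartic proteases (cathepsins), 1 was called lower with NP24 and the median log2 difference was -0.43. With Tβ10, 1 was called lower and the median was -0.46. The member called was Ctsd in both. Of the 10, 6 with NP24 and 5 with Tβ10 were lower at an unadjusted p under 0.05.

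Ctsd encodes cathepsin D, the main aspartic protease of lysosomes (ENSMUSG00000007891.16, GRCm38 chromosome 7, 142375911 to 142388038, minus strand). Its normalized counts were 815, 869, 793 and 549.6 with NP24, 528, 1011, 856 and 848 with Tβ10, 2798, 887, 1967 and 1653 with Tβ4, and 2269, 1450, 1393 and 1623 in control cultures. All NP24 and Tβ10 libraries were below every control library, while Tβ4 library 2 was far below the other Tβ4 libraries. Ctsd averaged 757 ± 142 with NP24 and 1684 ± 402 in control cultures (SD, n = 4 each), a log2 difference of -1.15 ± 0.15 (SE), or 2.21-fold lower, with an adjusted p of 0.000318 by limma. With Tβ10 it averaged 810.5 ± 203 and the log2 difference was -1.06 ± 0.18 (adjusted p = 0.00692). The NP24 call held when each of the 8 libraries was left out in turn, and the Tβ10 call held in 7 of 8, being lost without control library 1 at an adjusted p of 0.0641. Of the exon length of Ctsd, 34.4% is shared with the gene model Gm49369, whose values (605 ± 113 with NP24 and 1344 ± 323 in control cultures) are therefore not a separate measurement.

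Ctsl, encoding the cysteine protease cathepsin L, had 464, 503, 352 and 365 normalized counts with NP24, 242, 546, 325 and 293 with Tβ10, and 659, 501, 521 and 663 in control cultures. The log2 difference was -0.48 ± 0.15 with NP24 (adjusted p = 0.0846) and -0.79 ± 0.20 with Tβ10 (adjusted p = 0.0863), and both groups overlapped the control range. Npc2, encoding the soluble protein that hands cholesterol to NPC1, had 507, 609.7, 474 and 406 with NP24, 429.8, 606, 455 and 626 with Tβ10, and 986, 772, 597 and 626 in control cultures. Its log2 difference was -0.56 ± 0.16 with NP24 (adjusted p = 0.0526) and -0.48 ± 0.17 with Tβ10 (adjusted p = 0.253). Neither gene passed the threshold in these fits. Ctsb, encoding cathepsin B, averaged 1517 ± 245 with NP24, 1463 ± 369 with Tβ10 and 1949 ± 380 in control cultures (SD, n = 4 each), with log2 differences of -0.35 ± 0.13 and -0.43 ± 0.17 for NP24 and Tβ10 (adjusted p = 0.157 and 0.33). Ctsh, which had the fewest counts per kb of exon of the 44 members, had the largest log2 difference, -1.56 ± 0.59 with NP24 and -1.39 ± 0.49 with Tβ10, but from only 3.71 to 22.4 normalized counts per library with NP24, 10.2 to 16.6 with Tβ10 and 16.1 to 64.3 in control cultures. It did not pass the threshold (adjusted p = 0.165 and 0.26).

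**Figure D2:**
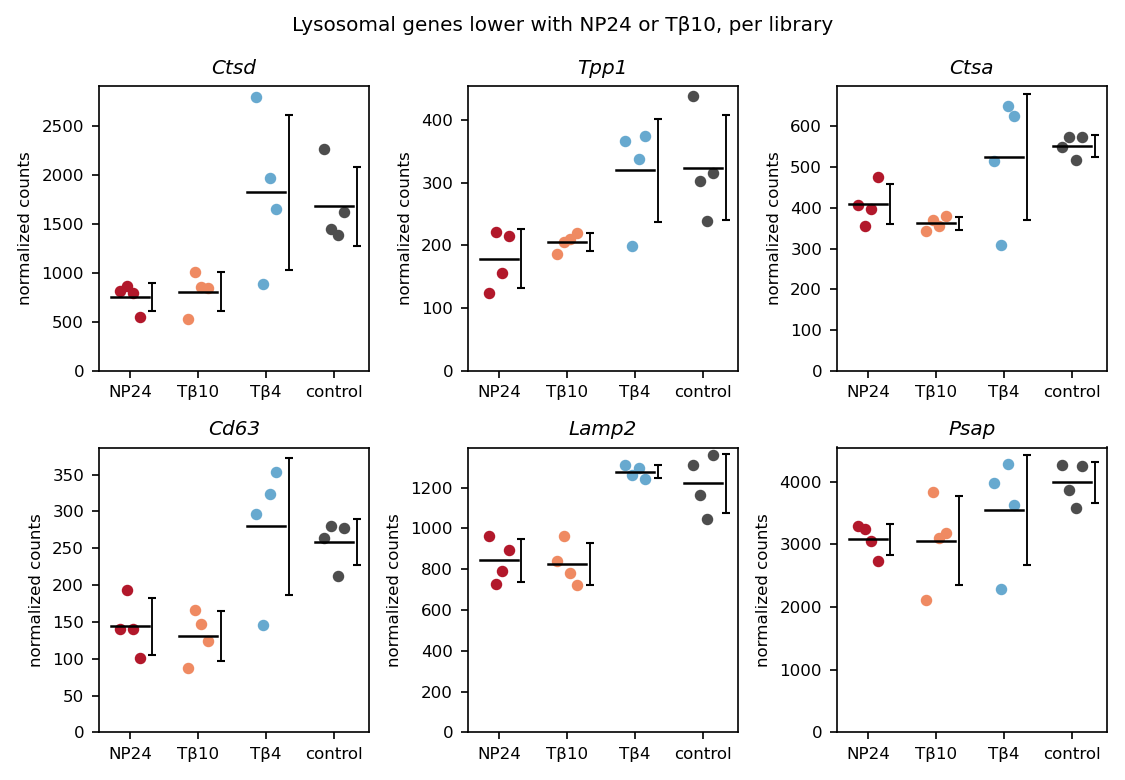
Normalized counts of the 6 members called with NP24 or Tβ10, one panel per gene with a linear axis from 0; each point is a library, the horizontal line is the group mean and the bar at its side spans 1 SD either way (n = 4). For Ctsd, Tpp1, Ctsa, Cd63 and Lamp2 all NP24 and Tβ10 points lie below all control points, whereas for Psap 1 Tβ10 library at 3842 reaches the control range.

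Among the 23 widely expressed hydrolases, Tpp1 was called lower with NP24 and Ctsa with Tβ10, as the panels of called members by library show. Their median log2 difference was -0.27 with NP24, with 17 of 23 below 0, and -0.15 with Tβ10, with 18 of 23 below 0. Single values ranged over -0.86 to 0.33 with NP24 and over -0.62 to 0.29 with Tβ10, so this list held members on both sides of 0. With all macrophage-rich members set aside, the other 34 members held 4 of the NP24 calls and 2 of the Tβ10 calls, with medians of -0.27 and -0.15.

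Tpp1 encodes tripeptidyl peptidase 1, which trims peptides from the N-terminal end and is lost in a childhood form of neuronal ceroid lipofuscinosis (ENSMUSG00000030894.5, chromosome 7, 105744811 to 105752235, minus strand). It had 124, 221, 156 and 215 normalized counts with NP24, 187, 205, 211 and 220 with Tβ10, 366, 199.8, 337 and 375 with Tβ4, and 438, 302, 239 and 316 in control cultures. The NP24 and Tβ10 libraries were all below the lowest control library. Relative to control, the log2 difference of Tpp1 was -0.86 ± 0.21 with NP24 (adjusted p = 0.0331) and -0.62 ± 0.18 with Tβ10 (adjusted p = 0.158). The NP24 call was lost in 5 of 8 fits that left out a library, with a highest adjusted p of 0.163.

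Ctsa encodes cathepsin A, a carboxypeptidase that also protects beta-galactosidase and neuraminidase 1 in the lysosome (ENSMUSG00000017760.16, chromosome 2, 164832873 to 164841032, plus strand). Its normalized counts were 406, 356, 398 and 474 with NP24, 342, 370.5, 355 and 379 with Tβ10, 515, 309, 649.7 and 625 with Tβ4, and 548, 572, 516 and 572 in control cultures. Tβ10 and control libraries were each tightly grouped and did not overlap. Its log2 difference was -0.61 ± 0.13 with Tβ10 (adjusted p = 0.0359) and -0.44 ± 0.13 with NP24 (adjusted p = 0.0726). The Tβ10 call was lost in 6 of 8 fits that left out a library, with a highest adjusted p of 0.155, and 17.4% of the exon length of Ctsa is shared with Neurl2 and Pltp.

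Gaa, encoding the acid alpha-glucosidase that degrades glycogen, averaged 1079 ± 163 with NP24, 1038 ± 111 with Tβ10 and 1348 ± 163 in control cultures (SD, n = 4 each). Its log2 difference was -0.33 ± 0.12 with NP24 (adjusted p = 0.154) and -0.37 ± 0.12 with Tβ10 (adjusted p = 0.214). Ids, encoding the iduronate 2-sulfatase of heparan and dermatan sulfate breakdown, lay on the other side. It had 2687, 2801, 2892 and 2445 normalized counts with NP24, 2028, 3723, 2811 and 2277 with Tβ10, and 2054, 2291, 2194 and 2070 in control cultures. All NP24 libraries were above all control libraries, with a log2 difference of 0.33 ± 0.09 that missed the threshold (adjusted p = 0.0521) but was called higher by DESeq2, while the Tβ10 libraries overlapped the control range. Ids was the only one of the 44 members higher with NP24 without overlap, and 8 members were lower without overlap. Of all genes, 4.77% were lower without overlap and 9.84% did not overlap in either direction.

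Of the 8 membrane proteins and saposins, 3 fell with NP24 (Lamp2, Cd63 and Psap) and 1 with Tβ10 (Cd63). The median log2 difference was -0.37 with NP24, with 7 of 8 below 0, and -0.20 with Tβ10, with 8 of 8 below 0. Lamp2 and Cd63 span the membrane, and Psap is cut into the saposins that present sphingolipids to hydrolases.

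Lamp2 encodes a heavily glycosylated protein of the lysosomal membrane that serves in chaperone-mediated autophagy (ENSMUSG00000016534.15, chromosome X, 38401357 to 38456454, minus strand). Its normalized counts were 964, 727, 793 and 892 with NP24, 838, 964, 784 and 723 with Tβ10, 1313, 1263, 1294 and 1242 with Tβ4, and 1312, 1164, 1044 and 1361 in control cultures. All NP24 and Tβ10 libraries lay below every Tβ4 and control library. The log2 difference was -0.53 ± 0.12 with NP24 (adjusted p = 0.0181) and -0.56 ± 0.13 with Tβ10, which narrowly missed the threshold (adjusted p = 0.0502). The NP24 call was lost without NP24 library 3, control library 1 or control library 4, with a highest adjusted p of 0.0972.

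Cd63 encodes a tetraspanin of late endosomes, lysosomes and exosomes (ENSMUSG00000025351.14, chromosome 10, 128900989 to 128912822, plus strand). It had 141, 194, 140.3 and 100.5 normalized counts with NP24, 86.8, 166, 147 and 124 with Tβ10, 296, 145, 324 and 354 with Tβ4, and 265, 279.9, 212 and 277 in control cultures. Every NP24 and Tβ10 library was below the lowest control library. The log2 difference was -0.87 ± 0.21 with NP24 (adjusted p = 0.0267) and -1.005 ± 0.21 with Tβ10, or 2.01-fold lower (adjusted p = 0.0381). Leaving out a library ended the NP24 call in 5 of 8 fits and the Tβ10 call in 6 of 8, with highest adjusted p-values of 0.112 and 0.184.

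Psap, encoding prosaposin, had the most normalized counts per kb of exon of the 44 members in control cultures, 1454 (ENSMUSG00000004207.14, chromosome 10, 60277627 to 60302597, plus strand). Its normalized counts were 3294, 3239, 3057 and 2736 with NP24, 2116, 3842, 3098 and 3186 with Tβ10, and 4266, 3866, 3584 and 4246 in control cultures. NP24 libraries were all below control libraries, and 1 Tβ10 library was within the control range. On the log2 scale the difference was -0.37 ± 0.09 with NP24 (adjusted p = 0.0331) and -0.41 ± 0.15 with Tβ10 (adjusted p = 0.259). The NP24 call was lost in 5 of 8 fits that left out a library, with a highest adjusted p of 0.13, and with library-size scaling and without the filter on low values.

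Lamp1, the other main glycoprotein of the lysosomal membrane, did not pass the threshold. It averaged 1761 ± 188 with NP24, 1700 ± 458 with Tβ10 and 1968 ± 222 in control cultures (SD, n = 4 each), and its log2 difference with NP24 was -0.16 ± 0.11 with a 95% interval of -0.38 to 0.06. Mcoln1, encoding the lysosomal calcium channel TRPML1, had 579, 731, 543 and 616 normalized counts with NP24, 536, 619, 609.7 and 577 with Tβ4, and 750.2, 794, 830.1 and 811 in control cultures. NP24 and Tβ4 libraries were each below all control libraries, which with Tβ4 held for 2.17% of all genes, with log2 differences of -0.38 ± 0.12 and -0.44 ± 0.12 that did not pass the threshold (adjusted p = 0.0939 and 0.458). The authors' deposited table for Tβ4 gave Mcoln1, alone among the 44, an adjusted p under 0.05, with a log2 fold change of -0.44. Over all genes, 163 had such a value there.

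None of the MiT/TFE factors passed the threshold with any peptide against control by limma, edgeR or DESeq2. At an unadjusted p under 0.05, Mitf was lower with NP24 and Tfeb was higher with Tβ4. Tfeb averaged 146 ± 59.5 normalized counts with NP24, 149.6 ± 38.9 with Tβ10, 215 ± 27.2 with Tβ4 and 139.9 ± 57.5 in control cultures (SD, n = 4 each). The 95% interval of its log2 difference was -0.54 to 0.66 with NP24 and -0.43 to 0.71 with Tβ10, so changes of up to about that size could not be seen. Tfe3 averaged 365 ± 39.1 with NP24, 313 ± 11.4 with Tβ10, 370 ± 106 with Tβ4 and 357 ± 73.7 in control cultures. Mitf had 323, 313, 262 and 435 normalized counts with NP24, 591, 319.5, 388 and 488 with Tβ10, 534, 1033, 444 and 582 with Tβ4, and 416, 371, 488 and 501 in control cultures. Its log2 difference was -0.43 ± 0.16 with NP24 (adjusted p = 0.173), and the highest value was that of Tβ4 library 2. The 14 members with CACGTG in the promoter window, such as Lamp1 and Mcoln1 shown above, had a median log2 difference of -0.34 with NP24 and -0.19 with Tβ10. The 25 with a window but no CACGTG, such as Cd63 and Lamp2, had medians of -0.31 and -0.17.

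With Tβ4, 0 of 22205 genes passed limma's test, a share of 0%, edgeR called 0 and DESeq2 called 21 lower and 54 higher, of which 0 were members. At an unadjusted p under 0.05, 2 members were lower (Mcoln1 and Ctsf) and 4 were higher (Arsb, Ctsz, Ctsc and Tfeb), where 7.06% of all genes had such a p. The median of the 44 log2 differences was 0.02, with 21 below 0, against 50.6% of all genes below 0. Ctsz, encoding the carboxypeptidase cathepsin Z, had 354, 167, 266 and 278 normalized counts with Tβ4 and 167, 139.5, 178 and 121 in control cultures, a log2 difference of 0.78 ± 0.24 (adjusted p = 0.483). Without Tβ4 library 2, 1 member was called, and it was higher.

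Direct comparisons of the peptides were made in a fit of all 16 libraries. Between NP24 and Tβ4, 5 members were lower with NP24, namely Ctsd, Ctsc, Ctsz, Lamp2 and Mitf, where 2.09% of 24232 genes were called and 1.65% were called lower. Between Tβ10 and Tβ4, Ctsd, Lamp2 and Cd63 were lower with Tβ10, where 1.35% of genes were called and 1.05% were called lower. Between NP24 and Tβ10, limma called 0 members, a share of 0% as over all genes, 1 member, Mcoln1, had an unadjusted p under 0.05 where 2.44% of genes did, and edgeR and DESeq2 called 0. The NP24 and Tβ10 contrasts share the Tβ4 libraries, and both counts were 0 in fits of only the 8 libraries concerned. Beside these members, 6 of 18 microglia markers and 6 of 7 fibroblast markers tested were lower with NP24 than with Tβ4. With Tβ10, 6 and 6 were lower than with Tβ4. In this fit a marker could pass the filter on low values through the 4 libraries of 1 group alone.

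Lamp2 was the member with the smallest p in both contrasts, with log2 differences of -0.61 ± 0.12 for NP24 minus Tβ4 (adjusted p = 0.012) and -0.63 ± 0.12 for Tβ10 minus Tβ4 (adjusted p = 0.00985). Ctsd differed by -1.18 ± 0.26 for NP24 minus Tβ4 (adjusted p = 0.0184) and by -1.09 ± 0.26 for Tβ10 minus Tβ4 (adjusted p = 0.034). Cd63 differed by -1.05 ± 0.26 for Tβ10 minus Tβ4 (adjusted p = 0.0494). Ctsc encodes cathepsin C, which activates serine proteases of immune cells, and had 57.4, 21.3, 92.8 and 43.6 normalized counts with NP24 against 129, 97.7, 153 and 150.2 with Tβ4. Its log2 difference was -1.45 ± 0.37 (adjusted p = 0.0429), with no overlap. Ctsz differed by -0.98 ± 0.24 (adjusted p = 0.0333) and Mitf by -0.90 ± 0.23 (adjusted p = 0.0389), both for NP24 minus Tβ4. Between NP24 and Tβ10 the 95% interval for Ctsd was -0.62 to 0.45 and that for Lamp2 was -0.23 to 0.28. Without Tβ4 library 2 the counts of members called were 10 for NP24 against Tβ4 and 10 for Tβ10 against Tβ4. Without Tβ4 library 1 they were 0 and 1, and every other library left out gave 2 or 3 for NP24 against Tβ4 and 1 to 3 for Tβ10 against Tβ4.

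Markers of microglia had lower levels with NP24 and Tβ10 as well. Of 20 markers, 11 were tested with NP24 and 13 with Tβ10, with median log2 differences of -0.84 and -0.77. With Tβ4, 16 were tested, with a median of 0.89. A low marker could pass the filter through the group where it was high. These medians therefore cover differing sets of markers, picked in part by level, and do not measure the whole list. The same limit holds for the other marker lists where not all genes were tested. The lysozyme gene Lyz2 was the 1 marker called with NP24 and with Tβ10, at 6.39 to 25.5 normalized counts per library with NP24, 4.82 to 24.4 with Tβ10 and 59.9 to 146.5 in control cultures. The summed level of all 20 ranged over 1789 to 1965 normalized counts with NP24, 1703 to 2121 with Tβ10, 2261 to 3370 with Tβ4 and 1978 to 2441 in control cultures. Cx3cr1 and P2ry12 made up most of that sum and averaged 1362 and 295 with NP24, 1399 and 340.3 with Tβ10, 1404 and 306.8 with Tβ4, and 1304 and 370.7 in control cultures. Neither of these most abundant markers was called with any peptide against control. Without them, the sum of the other 18 markers ranged over 177.9 to 245.5 with NP24 and 148.5 to 279.7 with Tβ10. It ranged over 512.1 to 1713 with Tβ4 and 422.3 to 700.5 in control cultures. The mean of this sum was 41.1% of control with NP24, 43.6% with Tβ10 and 177.5% with Tβ4. Of the defining markers, Tmem119 was at 0 in 11 of 16 libraries and Pf4 in 15. Fibroblast markers fell in 6 of 7 tested with NP24 (median -2.14) and in 4 of 7 with Tβ10 (median -1.91), and the pericyte markers Rgs5 and Pdgfrb fell with both. Of the oligodendrocyte lineage, 8 of 8 markers were below 0 with NP24 and 2, Olig2 and Mbp, fell, while 7 of 8 were below 0 with Tβ10. The astrocyte marker Aqp4 rose with NP24 and with Tβ10 and was the only one of 10 astrocyte markers called by limma. Of the 10, 4 were below 0 with NP24 (median 0.08) and 2 with Tβ10 (median 0.12). At an unadjusted p under 0.05, 4 were higher and 1 lower with NP24, and 3 higher and 1 lower with Tβ10. The part of these cells in the lysosomal differences was not tested.

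**Figure D3:**
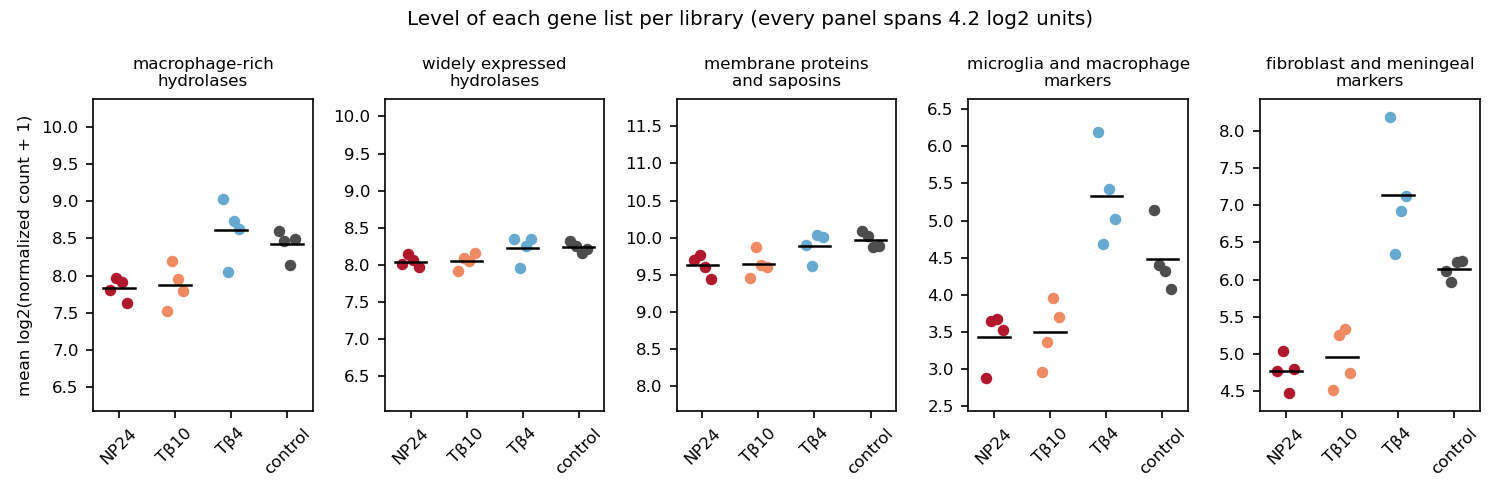
Mean log2(normalized count + 1) of 5 gene lists in each library, with the group mean as a line and every panel spanning the same number of log2 units. All NP24 and Tβ10 points lie below all control points for microglia and fibroblast markers, with the highest Tβ10 point of the microglia markers at 3.96 and the lowest control point at 4.08. For macrophage-rich and widely expressed hydrolases 1 Tβ10 point reaches the control range, and NP24 points lie below it.

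The levels of the lists per library put the widely expressed hydrolases beside these markers. Their mean log2 level was 7.97 to 8.14 with NP24 and 7.92 to 8.16 with Tβ10, against 8.16 to 8.32 in control cultures, with 1 Tβ10 library at the lower end of the control range. The mean difference from control was -0.19 with NP24 and -0.18 with Tβ10. With library-size scaling the Tβ10 value was -0.084, but that scaling also moved the median of all genes tested with Tβ10 from -0.005 to 0.090. The macrophage-rich members ranged over 7.63 to 7.96 with NP24, 7.53 to 8.20 with Tβ10 and 8.15 to 8.60 in control cultures. Members other than the macrophage-rich ones ranged over 8.31 to 8.53 with NP24, 8.31 to 8.52 with Tβ10 and 8.54 to 8.72 in control cultures, where the highest NP24 library was just below the lowest control library. The macrophage-rich level minus the widely expressed level was -0.22 ± 0.08 with NP24, -0.19 ± 0.24 with Tβ10, 0.38 ± 0.25 with Tβ4 and 0.19 ± 0.14 in control cultures (SD, n = 4 each). This difference between the lists was lower in every NP24 library than in every control library, while 1 Tβ10 library, at 0.10, was within the control range. Levels of microglia markers were 2.89 to 3.68 with NP24, 2.96 to 3.96 with Tβ10, 4.69 to 6.19 with Tβ4 and 4.08 to 5.14 in control cultures.

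Tβ4 library 2 had a microglia marker level of 4.69, inside the control range, and some lysosomal values below the control range. There Ctsd was 887 against 1393 to 2269 in control libraries, Cd63 was 145 against 212 to 279.9, and Psap was 2291 against 3584 to 4266. Lamp2 in that library, at 1263, was within the control range of 1044 to 1361, as was Ctsz, and Mitf was above every control library. Its share of mitochondrial rRNA, 8.25%, was below the control range of 9.32% to 14.2%. As 1 library, it is a description.

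With the microglia marker level as a covariate, no member was called by limma in any comparison. At an unadjusted p under 0.05, 5 members were lower with NP24 (Ctsd, Gaa, Lamp2, Cd63 and Psap) and 2 with Tβ10 (Ctsa and Lamp2) in 8 libraries. The share of all genes at that p with a covariate is not reported here, and edgeR and DESeq2 were not run with the covariate. In that fit the median log2 difference of the members was -0.14 with NP24, with 32 of 44 below 0, and -0.11 with Tβ10, with 27 below 0. The median SE was larger, 0.30 with the covariate and 0.18 without it for NP24. By list, the NP24 medians with the covariate were -0.41 for macrophage-rich members, -0.07 for widely expressed hydrolases and -0.26 for membrane proteins and saposins in 8 libraries, and -0.15, -0.05 and -0.28 in 16 libraries. The Tβ10 medians in the same order were -0.17, -0.04 and -0.19 in 8 libraries and -0.08, -0.06 and -0.16 in 16 libraries, so the order of the lists was not the same in all fits. Marker levels of NP24 or Tβ10 libraries do not overlap those of control libraries, so in 8 libraries the peptide and the marker level cannot be told apart.

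**Figure D4:**
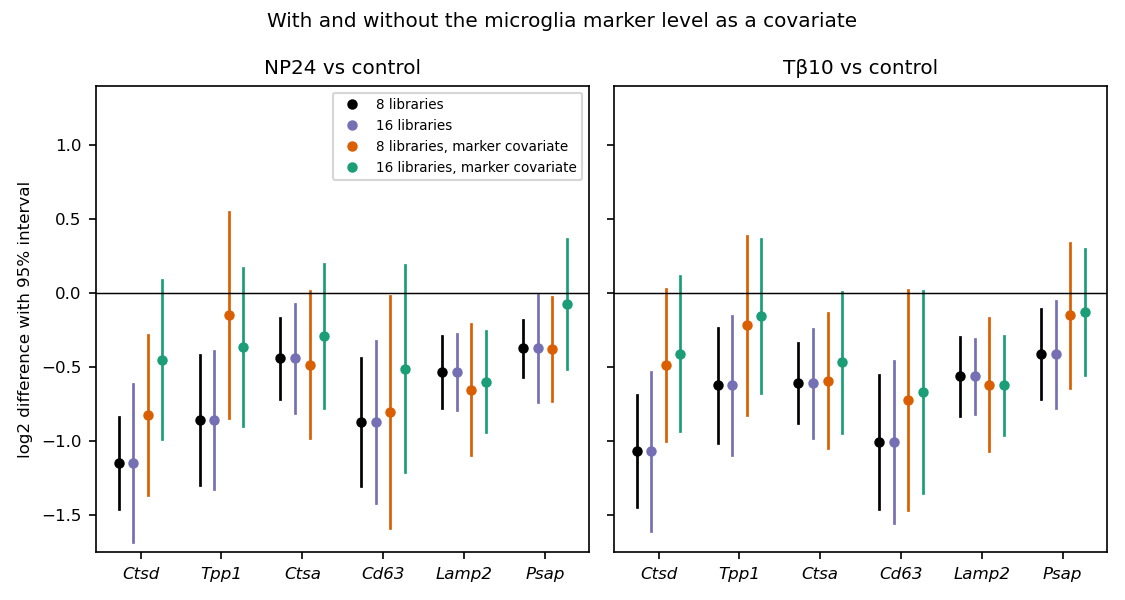
Log2 difference and 95% interval of the 6 members called, for NP24 and Tβ10 against control, fitted with 8 or 16 libraries and with or without the microglia marker level as a covariate. Points for Lamp2 stay between -0.53 and -0.65 in all fits, and those for Tpp1, Ctsd and Cd63 lie nearer 0 with the covariate. Psap with NP24 is at -0.37 in 8 libraries and -0.07 in 16 libraries with the covariate.

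The plot of fits with and without the covariate shows the 6 called members, none of which passed the threshold with it. Lamp2 had a log2 difference of -0.65 ± 0.21 with NP24 in 8 libraries with the covariate and of -0.60 ± 0.17 in 16 libraries (adjusted p = 0.621 and 0.33). With Tβ10 its values were -0.62 ± 0.21 and -0.62 ± 0.16. Ctsa with Tβ10 was -0.59 ± 0.22 in 8 libraries with the covariate and -0.47 ± 0.23 in 16. Ctsd with NP24 was -0.82 ± 0.26 in 8 libraries and -0.45 ± 0.26 in 16. Cd63 was -0.80 ± 0.38 and -0.51 ± 0.34 with NP24, and -0.72 ± 0.35 and -0.67 ± 0.33 with Tβ10. Tpp1 with NP24 was -0.15 ± 0.33 and -0.36 ± 0.26, and Psap with NP24 was -0.37 ± 0.17 and -0.07 ± 0.21. The fit of 16 libraries with the covariate was chosen after the data were seen. With the share of mitochondrial rRNA as a covariate, no member was called by limma either. At an unadjusted p under 0.05, 3 members were lower with NP24 and 4 with Tβ10, and Lamp2 was -0.37 ± 0.21 with NP24. NP24 and control libraries did not overlap in this share, so in 8 libraries the peptide and the share cannot be told apart. For NP24 the median SE was 0.32 with this covariate and 0.18 without it.

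Genes of the lysosomal system outside the 44 were examined in 4 lists. None of 18 subunits of the V-ATPase, the proton pump that acidifies lysosomes, was called with any peptide against control by limma, and their median log2 difference was -0.01 with NP24, with 2 lower at an unadjusted p under 0.05, and -0.11 with Tβ10, with 0. Of 12 genes of mannose 6-phosphate and sortilin delivery, Gnptg fell with NP24 (-0.52 ± 0.14, adjusted p = 0.0467). Gnptg encodes a subunit of the enzyme that makes the mannose 6-phosphate tag. Of its exon length, 49.5% is shared with Unkl on the opposite strand, and the strand setting of the counting is unknown. With Tβ10, 0 of the 12 were called and 1 was higher at an unadjusted p under 0.05. Among further lysosomal genes, those that fell with both peptides included Gpnmb, a glycoprotein of lysosomes (-3.14 ± 0.26 with NP24 and -3.63 ± 0.33 with Tβ10), and Cd68, a lysosomal membrane protein of macrophages (-1.28 ± 0.26 and -1.30 ± 0.27). Ctss, encoding the macrophage protease cathepsin S, fell with NP24 (-2.05 ± 0.41). Of 22 genes of autophagy and nutrient sensing, Wipi1, a phosphoinositide-binding protein of forming autophagosomes, fell with both peptides (-0.60 ± 0.14 with NP24, adjusted p = 0.025, and -0.68 ± 0.14 with Tβ10, adjusted p = 0.0359). Wipi1 had 374, 323, 314 and 324 normalized counts with NP24, 315, 346, 296 and 302 with Tβ10, and 496, 427, 519 and 590.3 in control cultures, without overlap. With Tβ4 none of the genes in these 4 lists was called by limma, and 1 V-ATPase gene and 1 delivery gene were lower at an unadjusted p under 0.05. Where limma called 0 of a list, edgeR and DESeq2 also called 0.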

How the data were processed

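The deposited tables hold 1 value per gene and library, which are counts divided by a size factor (normalized counts, a signal in unit), beside the authors' log2 fold changes, p-values and adjusted p-values and, per the file headers, a test score. The submitters' processing notes name FastQC, HISAT, HISAT2, featureCounts, DESeq2 and GRCm38; their versions and the strand setting of the counting are not given in the sources used here. All 16 libraries came from 1 of the tables, and the number of unused columns of sample values was 0. Whole reads were recovered from the deposited values: 100% of nonzero values were whole multiples within a tolerance of 0.01, and 1 read was worth 0.536 to 1.71 normalized counts.

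Values were tested with limma 3.58.1 (R 4.3.3) on log2(value + 1), keeping a gene where 4 or more of the compared libraries reached 10 normalized counts, and p-values were adjusted by Benjamini-Hochberg over every gene kept. A peptide was compared with control in 8 libraries, and peptides with each other in a fit of all 16. The recovered reads were also tested with DESeq2 1.42.0 and with edgeR 4.0.16. Further alternatives were TMM and library-size scaling, pseudocounts of 0.1 and 10, no filter, a replicate block, other sets of libraries, covariates and leaving out each library. The tests were checked on simulated data.

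The members and all lists were chosen with earlier results of these data known, so list counts are descriptions. All members could be named; full values were given for members called against control, the 8 with the smallest p with NP24 and with Tβ10, and Tfeb, Tfe3, Mitf, Ctsd, Ctsb and Lamp1. Other members with values, such as Ctsc, Ctsz, Ctsh and Mcoln1, and the 6 promoters shown, were chosen after their values were seen. Positions are from GENCODE M21 and promoter sequences from RefSeq, both on GRCm38. Exons are shared with another gene model in 16 members, and strand use in the counting being unknown, reads there cannot be told apart. The count over the list of further lysosomal genes is not reported here.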

Additional observations from a re-analysis of the deposited data

Results flagged for a closer look

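In the Tβ10 group, library 2 had 296.2 normalized counts of Tfe3, apart from the other 3 libraries at 318 to 320.6. It was the 1 such value among 76 groups of 4 libraries screened, where chance alone gives about 1 in 20.

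Several members differed between peptides by a direct test of the difference (limma, adjusted p under 0.05). For NP24 minus Tβ4 the log2 differences were -1.45 for Ctsc, -1.18 for Ctsd, -0.98 for Ctsz, -0.61 for Lamp2 and -0.90 for Mitf. For Tβ10 minus Tβ4 they were -1.09 for Ctsd, -0.63 for Lamp2 and -1.05 for Cd63.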

How the results depend on the processing

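The count of members called with NP24 against control was 5, and was 10 with DESeq2 (9 lower, 1 higher), 1 with all 16 libraries, and 0 with the microglia marker covariate in 8 or 16 libraries or with the mitochondrial rRNA covariate; leaving out a library gave 1 to 8. With Tβ10 it was 3, and was 5 with DESeq2, 1 with library-size scaling and 0 with all 16 libraries or with any covariate; leaving out a library gave 0 to 6. With Tβ4 it was 0 under every setting, except 1 without Tβ4 library 2 (0 to 1 over libraries left out). For NP24 against Tβ4 it was 5, and was 1 with library-size scaling, 2 without the filter and 0 in 8 libraries or with either covariate (0 to 10 over libraries left out). For Tβ10 against Tβ4 it was 3, and was 5 with DESeq2, 1 without the filter and 0 in 8 libraries or with either covariate (1 to 10). For NP24 against Tβ10 it was 0 in every fit. Over all genes DESeq2 called 612 lower and 566 higher with NP24, 304 and 119 with Tβ10, and 607 and 200 for Tβ10 against Tβ4. Shares over all genes with libraries left out or with covariates are not reported here. The mean level of widely expressed hydrolases with Tβ10 minus control was -0.18, and -0.084 with library-size scaling. The same scaling moved the median of all genes tested with Tβ10 from -0.005 to 0.090. The mean level of microglia markers with NP24 minus control was -0.61 with a pseudocount of 10. The cause of these changes was not tested.

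With the replicate number as a block, the counts were 6 for NP24, 1 for Tβ10, 2 for NP24 against Tβ4 and 1 for Tβ10 against Tβ4. Libraries of the same number had correlated deviations of -0.30 to 0.11 over 24 pairs, so the numbers do not pair the libraries.

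The following log2 differences changed sign, none of them called. With NP24 and the microglia covariate in 16 libraries, Ctsb was 0.052 and Lamp1 0.19. With Tβ10, Lamp1 was 0.14 with the microglia covariate, 0.079 with it in 16 libraries and 0.043 with the mitochondrial one; Tfe3 was 0.030 with the microglia covariate in 16 libraries and 0.0045 with the mitochondrial one; Mitf was 0.016 with edgeR, 0.014 with DESeq2 and 0.077 with library-size scaling. With Tβ4, library-size scaling gave -0.060 for Ctsd, -0.015 for Lamp2 and -0.043 for Cd63. The microglia covariate gave -0.69 for Ctsd and -0.23 for Cd63, in 16 libraries -0.53 and -0.24, and the mitochondrial one -0.38 and -0.15. Leaving out a library gave -0.18 to 0.30 for Tfeb and -0.10 to 0.14 for Tfe3 with NP24, and -0.015 to 0.39 for Tfeb and -0.17 to 0.13 for Mitf with Tβ10. With Tβ4 it gave -0.21 to 0.34 for Ctsd, -0.25 to 0.11 for Ctsa, -0.16 to 0.18 for Tpp1 and -0.093 to 0.33 for Cd63. Library-size scaling moved the median of all genes by 0.13 for NP24 and 0.18 for Tβ10 against Tβ4, and leaving out the filter by -0.13 for NP24 against Tβ4 and 0.12 for Tβ4 against control.

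The design had 4 libraries a group, and the median SE of a member's log2 difference was 0.18 with NP24 or Tβ10. Differences as large as -0.79 (Ctsl with Tβ10) and, at low counts, -1.56 (Ctsh with NP24) did not pass the threshold. Members at low counts, such as Ctsh, had wider intervals.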
